A study of Mus musculus with 7 samples.

Results

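The monocyte chemoattractant protein (MCP) genes are a small family of CC chemokines, of which 5 were followed here by name: Ccl2, Ccl7, Ccl8, Ccl11 and Ccl12. All 5 were found among the 53379 genes of the count table, each under 1 identifier. The samples were macrophages sorted as CD45, CD11b and F4/80 positive from MC38 tumours, a transplanted mouse colon carcinoma, 21 days after implantation. The mice were C57BL/6J animals fed a high-fat diet, 4 of them Gpr65 wild-type and 3 Gpr65 knockout, so that tumour model, diet and sort were shared by both groups. Gpr65, spelled Grp65 in some labels, encodes a receptor that senses extracellular protons. The age of the mice, the breeding of the knockout and any restriction of it to a cell type are not given in the sources used here, and each library is labelled as 1 mouse.

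MCP chemokines are secreted proteins that bind G-protein-coupled receptors on leukocytes and steer them along a gradient. Ccl2, Ccl7 and Ccl12 act through the receptor Ccr2, which draws monocytes out of the bone marrow and into inflamed tissue and tumours. Ccl8 of the mouse signals through Ccr8, and Ccl11, known as eotaxin, attracts eosinophils through Ccr3. Macrophages, fibroblasts, endothelial cells and tumour cells can all make MCP chemokines, and inflammatory cytokines and interferons induce them.

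The 5 genes lie side by side on the plus strand of chromosome 11 (GRCm38), in a stretch of 81.2 kb. In order they are Ccl2 (82035571 to 82037453), Ccl7 (82045712 to 82047525), Ccl11 (82057823 to 82062955), Ccl12 (82101845 to 82103400) and Ccl8 (82115185 to 82116799). Each has 1 annotated coding transcript of 3 exons. CC chemokines are named for 2 neighbouring cysteines, and a window of 60 coding bases around these codons is shown for each gene because it holds the family's defining feature, with the cysteine codons in capitals and all windows running 5′ to 3′ from GENCODE transcripts.
Ccl2: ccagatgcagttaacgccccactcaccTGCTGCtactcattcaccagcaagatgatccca
Ccl7: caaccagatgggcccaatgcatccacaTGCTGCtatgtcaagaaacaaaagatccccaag
Ccl11: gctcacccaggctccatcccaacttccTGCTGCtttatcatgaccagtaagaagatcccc
Ccl12: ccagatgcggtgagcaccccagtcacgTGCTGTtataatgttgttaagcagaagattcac
Ccl8: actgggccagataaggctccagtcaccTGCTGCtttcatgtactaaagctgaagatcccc
The cysteine codons lie in exon 2 of every gene, and no gene has another such pair in frame. In Ccl2 they are at 82036506 to 82036511, in Ccl7 at 82046538 to 82046543, in Ccl11 at 82061696 to 82061701, in Ccl12 at 82102634 to 82102639 and in Ccl8 at 82116056 to 82116061. Aligned end to end, the coding sequences of Ccl7, Ccl8, Ccl11 and Ccl12 were 62.5% to 66.3% identical, and Ccl2 was 44.9% to 48.4% identical to the others. Ccl2 has the longest coding sequence, 444 bases against 291 to 312. No 50-base word of any MCP transcript occurs in a transcript of another gene, so reads of that length or longer can be told apart between the members. Ccl2 overlaps the gene Gm17268 of the opposite strand, which held 13 counts over all libraries.

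The total count per library was 22449772 to 30483733, and values are counts per 1000000 counts of the library (CPM) with TMM scaling, which corrects for a few very abundant genes. Gpr65 measured 65.2 to 112 CPM in wild-type and 0.683 to 1.10 CPM in knockout libraries, so the targeted gene matched the genotype labels in all 7 libraries. Knockout 1 stood apart from the other libraries, with 940 tested genes at 0 counts against 51 to 281 elsewhere, and values without it are given beside the results that rest on it. The 9 macrophage markers, among them Adgre1 (F4/80), Itgam (CD11b) and Ptprc (CD45), summed to 14200 to 19680 CPM in wild-type and 14170 to 26540 CPM in knockout libraries. Of 16234 genes tested for a genotype difference, 6 passed an adjusted p of 0.05 (0.037%).

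Transcripts of Ccl2, Ccl7 and Ccl12 were abundant in every library, at 131 CPM or more, that of Ccl8 ran from 7.02 to 1067 CPM, and that of Ccl11 was all but absent. Ccl12 and Ccl7 had the highest estimates in knockout relative to wild-type mice, at 2.37-fold and 2.28-fold, and Ccl2 had 1.76-fold. Ccl8 varied more between mice of 1 genotype than between the genotypes. None of the 4 tested members passed the threshold over all genes (edgeR's quasi-likelihood test with Benjamini-Hochberg adjustment), where 0.037% of all genes did. DESeq2 called 1 member, Ccl12, and 0.704% of its genes, and limma voom called no member. At an unadjusted edgeR p under 0.05 there were 2 members, Ccl7 and Ccl12, beside 5.37% of all genes, or 2.57% counting those with a higher value in knockout mice.

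**Figure D1:**
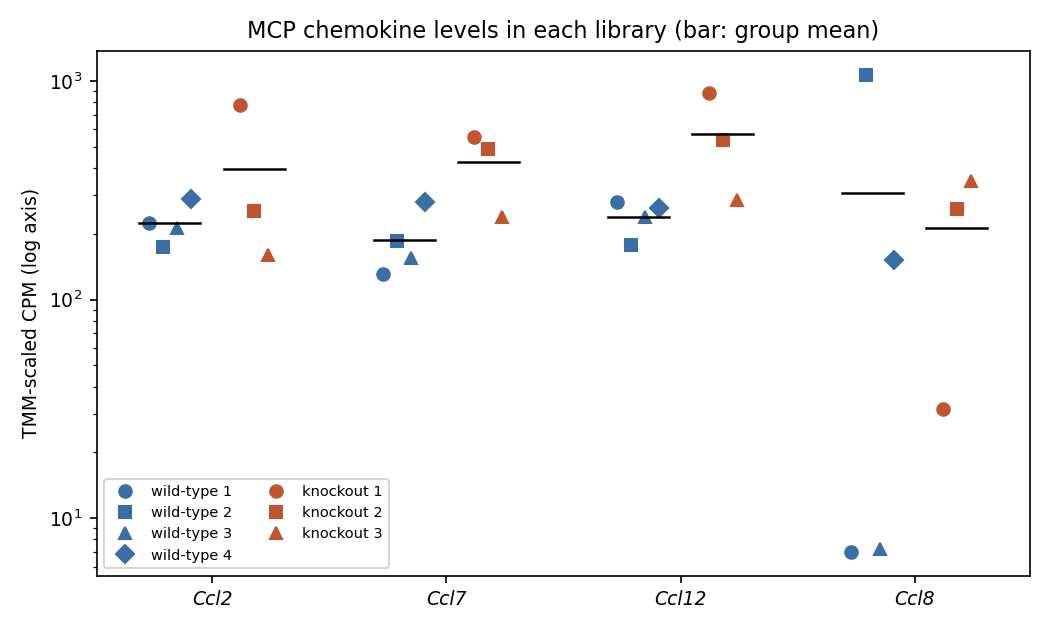
TMM-scaled CPM (log axis) of 4 MCP chemokines, 1 point per library, with wild-type mice in blue, knockout mice in orange and a bar at each group mean. Ccl8 runs from 7.02 CPM in wild-type 1 to 1067 CPM in wild-type 2, while Ccl2, Ccl7 and Ccl12 stay between 131 and 882 CPM.

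Ccl12, a ligand of Ccr2 in the mouse, measured 280.3, 177, 237 and 263 CPM in wild-type 1 to 4, against 882, 538 and 285 CPM for knockout 1 to 3. Each knockout value lay above each wild-type value with TMM scaling, but not with counts divided by library size alone, where knockout 3 measured 275 CPM and wild-type 1 measured 300.4 CPM. Groups without overlap in either direction were found for 6.12% of all tested genes, and for 2.8% with the knockout mice above. The means were 239 ± 45.1 CPM (SD, n = 4) and 568 ± 299.8 CPM (SD, n = 3). On the log2 scale the fitted difference was 1.25 (SE 0.34), with an edgeR adjusted p of 0.73 and a DESeq2 adjusted p of 0.044. A two-sided exact permutation test of its log2 CPM gave p = 0.0286, the smallest that 7 libraries in groups of 4 and 3 can give, and p = 0.0857 by library size alone. Without knockout 1 the fitted log2 difference of Ccl12 was 0.77 (edgeR adjusted p = 0.38).

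Ccl7, which binds Ccr2 and several other chemokine receptors, measured 131, 184, 155 and 278 CPM in wild-type 1 to 4, against 552, 489 and 239 CPM for knockout 1 to 3. Knockout 1 and knockout 2 lay above all wild-type mice, and knockout 3 lay below wild-type 4. The means were 187 ± 64.7 CPM (SD, n = 4) and 427 ± 166 CPM (SD, n = 3), a fitted log2 difference of 1.19 (SE 0.34) whose edgeR adjusted p was 0.74. The exact permutation p was 0.0857, and DESeq2 gave an adjusted p of 0.059. Its fold change was positive in all 16 alternative fits, between 0.94 without knockout 1 and 1.48 without knockout 3.

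Ccl2, the best known monocyte attractant of the family, measured 224, 174, 212 and 289 CPM in wild-type 1 to 4, against 771, 253 and 160.3 CPM for knockout 1 to 3. Only knockout 1 lay above the wild-type range, and knockout 3 was the lowest of all libraries. The means were 225 ± 47.9 CPM (SD, n = 4) and 395 ± 329 CPM (SD, n = 3). The fitted log2 difference, 0.81 (SE 0.47) with an edgeR adjusted p of 1.0, rested on knockout 1, since without it the value was -0.14 (SE 0.25, adjusted p = 0.92). The exact permutation p was 0.514.

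**Figure D2:**
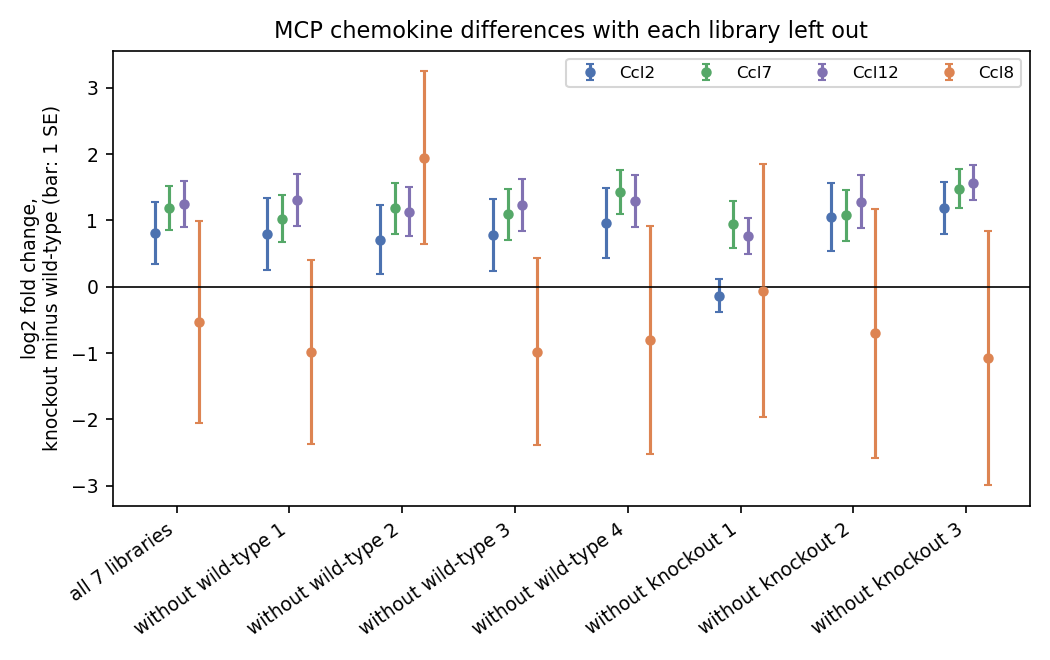
Log2 fold change of each chemokine, knockout minus wild-type, from edgeR fits with all 7 libraries and with each library left out, with bars of 1 SE. Ccl7 and Ccl12 stay above 0 in each fit, Ccl2 falls to -0.14 without knockout 1, and Ccl8 turns from -0.53 to 1.95 without wild-type 2.

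Ccl8 was present in every library but at very different levels. It measured 7.02, 1067, 7.23 and 151 CPM in wild-type 1 to 4, against 31.6, 260.0 and 348 CPM for knockout 1 to 3, from 169 counts in wild-type 1 to 27685 in wild-type 2. Wild-type mice thus held both the lowest and the highest values, with a 152-fold range, and all knockout mice lay inside it. For comparison the range among wild-type mice was 1.58-fold for Ccl12, 1.66-fold for Ccl2 and 2.13-fold for Ccl7.

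No direction can be given for Ccl8 between the genotypes. The means were 308 ± 511 CPM (SD, n = 4) and 213 ± 163 CPM (SD, n = 3), and the fitted log2 difference was -0.53 (SE 1.53) at an edgeR adjusted p of 1.0. The means of log2 CPM had the opposite order, 5.75 ± 3.54 in wild-type and 7.15 ± 1.89 in knockout mice (exact permutation p = 0.543). Without wild-type 2 the fold change was 1.95 (SE 1.30, adjusted p = 1.0).

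Ccl11, the eosinophil attractant, had 7 counts in wild-type 2 (0.270 CPM) and 0 counts in the other 6 libraries. A count of 0 allows up to 0.0995 to 0.125 CPM per library, for counting error only. Ccl11 did not pass the filter on low counts and was not tested.

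The promoters of Ccl12 and Ccl8, whose starts are 13.34 kb apart, are shown because no other member had a matching promoter sequence. These neighbours had very different spreads between mice, and a link of the spread to the promoter was not tested. RefSeq promoter sequences on GRCm38.p6 matched 2 of the 5 members, and the 250 bases before the start are printed 5′ to 3′ on the plus strand, chr11:82101595-82101844 for Ccl12 and chr11:82114935-82115184 for Ccl8. Capitals mark the TATA box motif TATAAA.
Ccl12: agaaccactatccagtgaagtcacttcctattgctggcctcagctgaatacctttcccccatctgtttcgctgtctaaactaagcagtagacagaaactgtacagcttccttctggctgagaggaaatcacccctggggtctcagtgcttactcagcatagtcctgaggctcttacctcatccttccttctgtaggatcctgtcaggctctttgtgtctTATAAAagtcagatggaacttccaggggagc
Ccl8: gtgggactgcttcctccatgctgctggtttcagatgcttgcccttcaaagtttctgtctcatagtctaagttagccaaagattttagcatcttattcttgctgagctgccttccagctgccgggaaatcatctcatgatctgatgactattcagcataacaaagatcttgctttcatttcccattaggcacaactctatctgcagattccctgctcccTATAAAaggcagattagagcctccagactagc
Both windows hold TATAAA once, beginning 31 bases before the start of Ccl12 and 32 bases before that of Ccl8, a motif that 12.4% of 32851 promoter windows of this length hold on either strand. The windows were 55.6% identical when aligned end to end. The letters TGANTCA (AP-1) and TTCNNNGAA (STAT) were in neither window on either strand, and 6.75% and 7.02% of all windows hold them. The forms searched of a loose NF-kB core and of the interferon response element were not there either, and 45.8% and 2.98% of all windows hold them.

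Levels of different genes were compared per kb of coding transcript. BWA, the sole aligner named in the processing notes, does not split reads at introns, so reads across exon junctions may be missing from these levels, and how many was not measured. In wild-type mice Ccl12 measured 446 ± 84.0 CPM per kb, Ccl2 276 ± 58.9 and Ccl7 234 ± 80.7 (SD, n = 4), while Ccl8 had a mean of 603 ± 999 and a median of 155. Ccl2 and Ccl7 did not differ beyond their spread, and Ccl8 had no place in the order because its values lay on both sides of all the others. In knockout mice Ccl12 measured 1058 ± 558 CPM per kb, Ccl7 533 ± 207, Ccl2 486 ± 405 and Ccl8 417 ± 319 (SD, n = 3), and no neighbours in this order differed beyond their spread. Within each library Ccl12 exceeded Ccl2 and Ccl7 per kb, in 7 of 7 libraries. This order depends on the transcript lengths used, 537 bases for Ccl12 against 813 for Ccl2 and 801 for Ccl7. In CPM without division by length, Ccl12 lay below both in wild-type 4 and below Ccl7 in wild-type 2. Ccl12 was the highest member in 5 libraries, and Ccl8 in wild-type 2 and knockout 3.

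**Figure D3:**
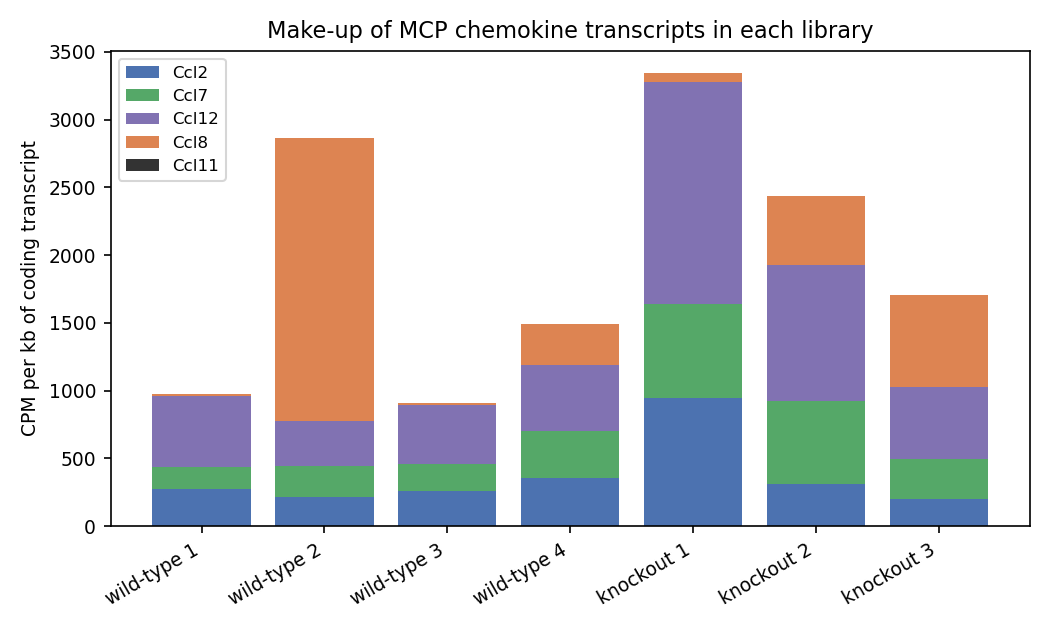
Stacked CPM per kb of coding transcript of the 5 MCP chemokines in each library. Ccl8 makes up 73.0% of the stack in wild-type 2 and 1.41% in wild-type 1, and Ccl11 is too low to be seen.

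The make-up of the family differed between single mice of 1 genotype, mainly through Ccl8. Per kb, Ccl8 was 1.41%, 73.0%, 1.55% and 19.9% of the MCP transcripts in wild-type 1 to 4, against 1.85%, 20.9% and 39.9% for knockout 1 to 3. The summed level of all 5 genes, not corrected for length, was 612 to 1603 CPM in wild-type and 1032 to 2237 CPM in knockout mice, with overlap. Without Ccl8 the sum was 536 to 830.0 CPM across wild-type mice, against 2205, 1281 and 684 CPM for knockout 1 to 3, so that 2 of the 3 lay above the wild-type range. Ccl2 relative to Ccl12, as a ratio of their CPM, was 0.799, 0.980, 0.896 and 1.10 in wild-type 1 to 4, against 0.874, 0.471 and 0.563 for knockout 1 to 3. The ratio was lowest in knockout 2 and knockout 3, while that of knockout 1 lay inside the wild-type range.

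Ccl2, Ccl7 and Ccl12 tended to be high in the same libraries, and Ccl8 had no steady relation to them. Of 6 pairs compared over the 7 libraries, Ccl7 with Ccl12 had r = 0.85 (exact permutation p = 0.018, adjusted p = 0.075) and rho = 0.68 (exact p = 0.11, adjusted p = 0.51). Ccl2 with Ccl12 had r = 0.84 (exact p = 0.025, adjusted p = 0.075) and rho = 0.50 (exact p = 0.27, adjusted p = 0.52), and Ccl2 with Ccl7 had r = 0.69 (exact p = 0.063, adjusted p = 0.13) and rho = 0.61 (exact p = 0.17, adjusted p = 0.51). Both genotypes are in these values, and each genotype has too few mice for a value of its own. The 2 libraries farthest from the median of 1 gene of the pair were then left out. Without knockout 1 and knockout 2, r was 0.11 for Ccl7 with Ccl12, so that relation rests on these libraries. Without knockout 1 and knockout 3, r was 0.61 for Ccl2 with Ccl12 and 0.55 for Ccl2 with Ccl7. Without knockout 1 alone, r was 0.75 for Ccl7 with Ccl12, but 0.45 for Ccl2 with Ccl12 and 0.37 for Ccl2 with Ccl7. Both relations of Ccl2 were thus weaker without that library. Ccl8 had r between -0.30 and 0.31 with the other members (exact p = 0.49 to 0.71). With the 2 farthest libraries left out these values also moved, to 0.67 with Ccl7, -0.85 with Ccl12 and -0.13 with Ccl2, so no relation of Ccl8 can be given.

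**Figure D4:**
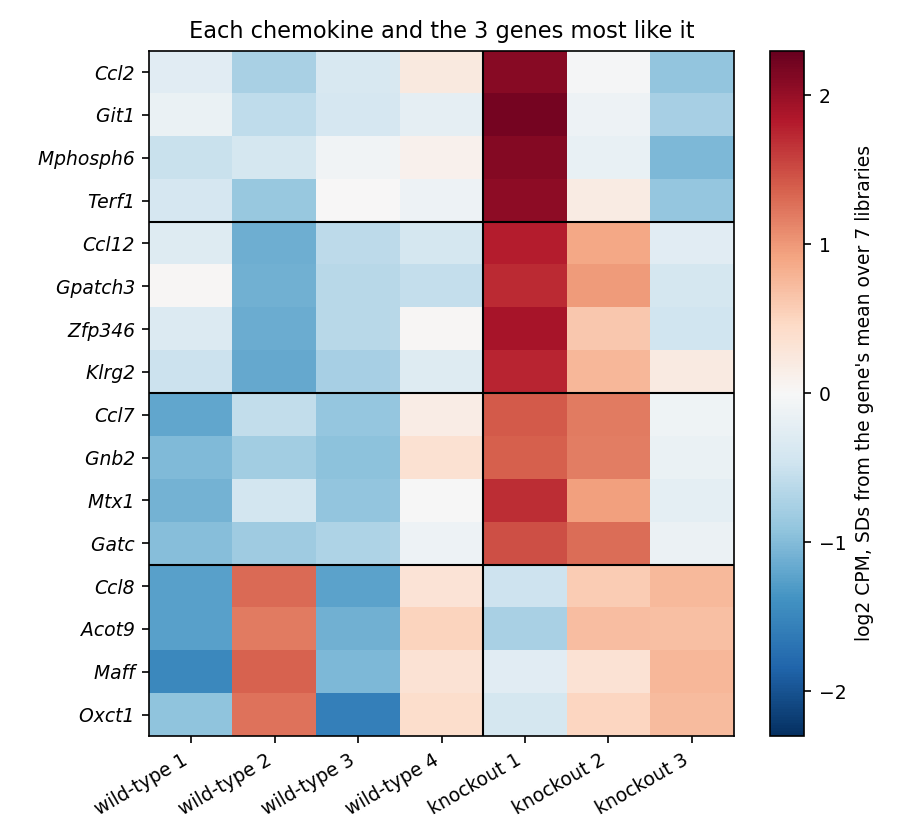
Log2 CPM of each chemokine and of the 3 genes most like it (rows), in the 7 libraries (columns), as SDs from the gene's own mean. Ccl2, Ccl12 and their most like genes are highest in knockout 1, whereas Ccl8 and its most like genes are highest in wild-type 2 and lowest in wild-type 1 or wild-type 3.

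The genes with the most similar pattern were sought among 10415 genes by Pearson's r of log2 CPM over the 7 libraries, a choice of the highest values among many that is given as a description. For Ccl8 they were the acyl-CoA thioesterase Acot9 (r = 0.99), the small Maf transcription factor Maff (r = 0.98) and the ketone-body enzyme Oxct1 (r = 0.98). Their levels varied far less than that of Ccl8, for Maff from 12.01 CPM in wild-type 1 to 32.23 CPM in wild-type 2. For Ccl12 they were Gpatch3 (r = 0.99), Zfp346 (r = 0.97) and Klrg2 (r = 0.97), and for Ccl7 the G-protein subunit Gnb2 (r = 0.99), the mitochondrial import gene Mtx1 (r = 0.98) and Gatc (r = 0.98). For Ccl2 they were Git1 (r = 0.98), Mphosph6 (r = 0.97) and the telomere-binding factor Terf1 (r = 0.97), each highest in knockout 1. By the same measure Ccl7 was 123rd and Ccl2 147th in likeness to Ccl12, and Ccl8 was 6494th.

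The receptor of Ccl2, Ccl7 and Ccl12 had a negative estimate, as had all 9 tested genes of the monocyte marker list, to which it belongs. Ccr2 measured 871, 792, 621 and 624 CPM in wild-type 1 to 4, against 488, 428 and 294 CPM for knockout 1 to 3. Each knockout value lay below each wild-type value, as it did for 3.33% of all tested genes. The fitted log2 difference was -0.85 (SE 0.23) at an edgeR adjusted p of 0.73, and DESeq2 gave an adjusted p of 0.044. Without knockout 1 it was -1.03 (edgeR adjusted p = 0.18).

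None of the 6 tested genes of the 8 receptors and scavengers passed in edgeR, 2 with a positive and 4 with a negative estimate, or 3 and 3 without knockout 1. Only Ccr2 had an unadjusted p under 0.05 (5.37% of all genes), and DESeq2, which called 0.704% of all genes, called it alone among them. Ccr1, a receptor of Ccl7, measured 515 ± 126 CPM in wild-type (SD, n = 4) and 366 ± 153 CPM in knockout mice (SD, n = 3), a log2 difference of -0.49 (SE 0.30) that was -0.90 without knockout 1. Ccrl2, an atypical receptor that does not signal by G proteins, measured 274 to 500.1 CPM in wild-type and 313 to 745 CPM in knockout mice (log2 fold change 0.71, SE 0.32). The receptors of Ccl8 and Ccl11 were low, with Ccr8 at 0 to 11.97 CPM and Ccr3 at 0.208 to 10.2 CPM over all libraries, and log2 differences of -0.30 (SE 1.30) and -1.70 (SE 1.22). Neither has a direction that held, since Ccr3 was 0.12 without wild-type 2, and Ccr8 was 0.28 without knockout 1, 0.11 without wild-type 4, 0.18 without knockout 2 and -3.71 without knockout 3. Ackr1 and Ackr2, which bind chemokines without signalling, reached at most 0.292 and 0.61 CPM and were not tested.

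**Figure D5:**
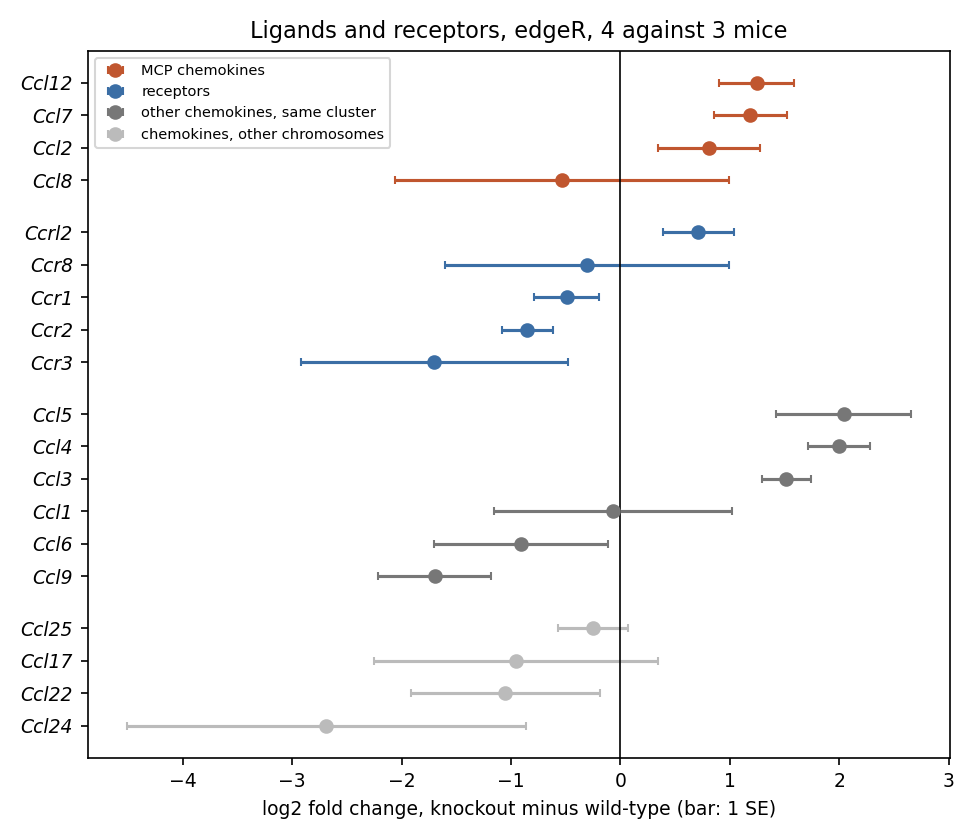
Log2 fold change, knockout minus wild-type, with bars of 1 SE for the tested MCP chemokines, the tested receptors described here and other CC chemokines. Ccl12, Ccl7 and Ccl2 lie above 0 and Ccr2 below, and no gene shown passed the threshold over all genes.

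The other chemokines of the chromosome 11 cluster did not share 1 direction. Of 6 tested genes none passed in edgeR, 4 had an unadjusted p under 0.05 (5.37% of all genes) and DESeq2 called 3 (0.704% of all genes). With no low count filter edgeR called Ccl4 (adjusted p = 0.00082) and Ccl3 (adjusted p = 0.0037), among 11 genes called of 29002 tested. The fold change was positive for 3 and negative for 3, and the median log2 value was 0.72 against -0.002 for all genes. Ccl4, a macrophage inflammatory protein, measured 76.3 to 151 CPM in wild-type and 369 to 604 CPM in knockout mice (log2 fold change 2.00, SE 0.28, edgeR adjusted p = 0.14, DESeq2 adjusted p = 1.7e-08). Its neighbour Ccl3, named after its values were seen, had 1.52 (SE 0.22, edgeR adjusted p = 0.14, DESeq2 adjusted p = 7.3e-07). Ccl9 measured 152 to 648 and 78.6 to 176 CPM (log2 fold change -1.70, SE 0.52, edgeR adjusted p = 0.78, DESeq2 adjusted p = 0.044). For the 4 tested MCP genes 3 fold changes were positive and 1 negative, with a median of 1.00, which was 0.35 without knockout 1, with 2 positive and 2 negative. Among all tested genes 49.7% were positive.

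Close neighbours gave little to compare. Within 0.5 Mb of the MCP cluster the table held 16 genes, the members included, and 5 of them were tested, the 4 MCP genes and Ccl1 (log2 fold change -0.07, SE 1.09). The CC chemokines of other chromosomes had 4 of 4 tested genes negative, with none called by edgeR, DESeq2 or limma voom and none at an unadjusted p under 0.05. Over all 20 tested chemokine ligands outside the MCP family 8 estimates were positive and 12 negative, with a median of -0.12. Ccl24, another eosinophil attractant, measured 6.32, 2409, 27.3 and 997 CPM in wild-type 1 to 4, against 346, 11.46 and 42.2 CPM for knockout 1 to 3. Ccl17, a ligand of Ccr4, had a log2 difference of -0.95 (SE 1.30). Like Ccl8, Ccl24 was high in wild-type 2 and wild-type 4 and low in wild-type 1 and wild-type 3, but its knockout values had another order.

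Genes that induce or regulate MCP transcription had no member called by edgeR, DESeq2 or limma voom. Of 15 regulators, such as NF-kB and AP-1 subunits, STAT factors and the mRNA-decay proteins Zfp36 and Zc3h12a, 11 fold changes were positive and 4 negative, with a median of 0.12 (0.26 without knockout 1) and none at an unadjusted p under 0.05. The highest expressed were Fos (log2 fold change 0.12, SE 0.20) and Junb (0.07, SE 0.29). Of 11 tested inducing cytokines 5 were positive and 6 negative, and only Tnf had an unadjusted p under 0.05, with Il1b at -0.14 (SE 0.36) and Tgfb1 at -0.15 (SE 0.20). Tnf, named after its values were seen, measured 28.1 to 38.4 CPM in wild-type and 40.7 to 57.4 CPM in knockout mice (log2 fold change 0.64, SE 0.19, edgeR adjusted p = 0.75). All 12 interferon-stimulated genes had positive fold changes, with a median of 0.41, beside 49.7% positive among all tested genes. None passed in edgeR, 3 had an unadjusted p under 0.05 (5.37% of all genes) and DESeq2 called 1, Xaf1 (0.704% of all genes). Irf7 had 0.55 (SE 0.25) and Cxcl10 0.76 (SE 0.21). The summed level of the list was 2370, 3799 and 2150 CPM in knockout 1 to 3, against 1807 to 2230 CPM in wild-type mice. Knockout 2 was thus by far the highest, and knockout 3 lay inside the wild-type range. Fold changes without knockout 2 are not given for this list.

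Other cells that can make or follow MCP chemokines were traced by markers, and in bulk samples fewer cells of a type and less RNA per cell cannot be told apart. The 10 monocyte markers summed to 2363 to 3931 CPM in wild-type and 628 to 1698 CPM in knockout mice, mostly from the fibronectin gene Fn1 and from Ccr2. Only for Fn1 and Ccr2 did each knockout value lie below each wild-type value, as it did for 3.33% of all tested genes. The groups overlapped for the other markers, among them Ly6c2 (log2 fold change -0.29, SE 0.49) and Plac8 (-0.16, SE 0.40). All 9 tested monocyte genes had negative fold changes, 3 with an unadjusted p under 0.05 (5.37% of all genes). None passed in edgeR, while DESeq2, which called 0.704% of all genes, called Ccr2, and limma voom called Fn1. Without knockout 1, edgeR called Fn1 lower (log2 fold change -3.18, SE 0.34, adjusted p = 0.023). The 14 resident-type macrophage markers had 10 of 12 tested genes negative, 4 of the 12 at an unadjusted p under 0.05, and summed to 843 to 2361 CPM in wild-type and 1118 to 1185 CPM in knockout mice. None passed in edgeR, and DESeq2 called Fcna (log2 fold change -2.89, adjusted p = 0.0059). The 8 fibroblast markers summed to 124 to 332 and 51.2 to 302 CPM, mostly from Col3a1, with Lum at no more than 1.47 CPM and Col1a1 at no more than 2.20 CPM. Of 7 tested fibroblast genes 5 were negative, 1 had an unadjusted p under 0.05 and none passed in edgeR, while DESeq2 called Pdgfrb (log2 fold change -3.30, adjusted p = 0.0024). The 7 endothelial markers summed to 10.3 to 21.5 and 9.55 to 16.8 CPM, with Cldn5 at 0 counts.

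The 7 MC38 and epithelial markers summed to 126 to 450.2 CPM in wild-type and 41.9 to 168 CPM in knockout mice, nearly all from Cdh1, while Krt8 and Krt19 reached at most 2.81 and 0.73 CPM. The 8 eosinophil markers summed to 351 CPM in wild-type 2 and 143 CPM in wild-type 4, and to at most 15.3 CPM in the other libraries. In knockout 2 and knockout 3, where Ccl8 exceeded its level in wild-type 4, the sum was 4.92 and 14.1 CPM. Most of the sum in wild-type 2 and wild-type 4 was Ear2, at 326.8 and 135.1 CPM, while in knockout 2 Siglecf (2.845 CPM) exceeded Ear2 (1.626 CPM). The eosinophil granule genes Epx and Prg2 reached at most 0.0406 and 5.94 CPM. The 10 neutrophil markers summed to 83.2 to 215 and 88.2 to 184 CPM, with Ly6g at 0 counts. Csf3r was the largest part of the sum in every library, at 53.2 to 181 CPM. In wild-type 2, which had the highest sum, Csf3r was 100.4 of 215 CPM. Its estimate was positive, 0.75 (SE 0.34), while 5 of 7 tested neutrophil genes were negative. None passed in edgeR and 2 had an unadjusted p under 0.05 (5.37% of all genes). DESeq2 called Retnlg and 0.704% of all genes. Retnlg measured 0.873 to 48.5 CPM in wild-type and 0 to 0.551 CPM in knockout mice (DESeq2 adjusted p = 0.044). The 8 T cell markers summed to 30.7 to 105 and 20.7 to 469 CPM, highest in knockout 3. All 8 T cell genes had positive fold changes (49.7% of all genes), with a median of 1.315, or 1.845 without knockout 1. The sum was 469 CPM in knockout 3, but 20.7 and 67.3 CPM in knockout 1 and knockout 2, neither above the wild-type range. Fold changes without knockout 3 are not given for this list, so a direction shared by the knockout mice cannot be read from these signs. The 3 tested tumour genes and the 3 tested eosinophil genes were all negative. An unadjusted p under 0.05 was found for 1 T cell, 2 tumour and 1 eosinophil gene, and neither edgeR nor DESeq2 called any of them. The part of these cells in the MCP levels was not tested.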

How the data were processed

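The 7 libraries came from sorted tumour macrophages, with polyA RNA prepared by a Takara SMART-seq kit per the labels' protocols. The authors deposited raw read counts per gene, on GRCm38 per the submitters' processing notes. Those notes list BWA 0.7.12, DESeq2 1.24.0, cutadapt 1.15 and FastQC 0.11.5. The counting program and its strand setting are not given in the sources used here.

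Identifiers were named from GENCODE M21 (99.8% matched). The fit used edgeR 4.0.16 (quasi-likelihood F test, robust, TMM, default low count filter, R 4.3.3) on all 16234 tested genes, with Benjamini-Hochberg adjustment and a threshold of 0.05. Log2 CPM used a prior count of 2. The two-sided exact permutation test went through all 35 assignments of 7 libraries to groups of 4 and 3, and correlations through all 5040 orderings. P-values measure the spread between these mice. In simulated data for the 16234 genes of this comparison, edgeR called 11 of 100 genes with a 2-fold change, 59 of 100 with a 4-fold change, and 7 unchanged genes. The common biological coefficient of variation was 42.9%.

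Named genes were the 5 members, the tested receptors (1 is not reported here), the 2 highest expressed genes of each further pathway list and the 3 genes most like each member. Marker lists were described by their sums and main or defining genes, and other genes were named after their values were seen. The members and lists were chosen with earlier results of these data known. Alternatives were 3 other scalings, 2 other filters, edgeR without robust estimation, DESeq2 1.42.0, limma 3.58.1 (voom with library weights), a block by mouse number, each library left out, and an adjusted p of 0.1.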

Additional observations from a re-analysis of the deposited data

Results flagged for a closer look

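Wild-type values of the 5 MCP chemokines and 6 receptors were examined for a single mouse apart from the rest, by the distance to its closest neighbour as a share of the group's range. Of these 11 sets 2 exceeded the 95% limit of Dixon's test, which chance exceeds in about 1 set in 20 where values are normally distributed. The values used were CPM, which can be strongly skewed, and log2 CPM was not examined. A flag therefore holds for the CPM scale alone. For Ccl8 in wild-type 2 the share was 0.864, with 1067 CPM against 7.02 to 151 CPM in the other wild-type mice. For Ccl11 in wild-type 2 it was 1.0, from 7 counts against 0 in the others, a value that any count above 0 would give and that therefore shows nothing beyond the 7 counts. Ccr3, the receptor of Ccl11, was also highest in wild-type 2, at 10.2 CPM, but its share of 0.808 was under the limit. Knockout mice were not examined in this way because their group holds 3.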

How the results depend on the processing

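Ccl7 and Ccl12 had positive fold changes in all 16 alternative fits, and Ccl12 passed the threshold in 1 of them, DESeq2 (log2 fold change 1.25, adjusted p = 0.044). Leaving out each library gave 0.94 to 1.48 for Ccl7, 0.77 to 1.57 for Ccl12, -0.14 to 1.19 for Ccl2 and -1.07 to 1.95 for Ccl8. Ccl2 was -0.14 without knockout 1 and -0.002 by limma voom. Ccl8 was 1.95 without wild-type 2, 3.74 by limma voom and 2.02 with the replicate block. The exact permutation test of Ccl12 gave a difference of 1.00 in log2 CPM (p = 0.0857) by library size alone, against 1.12 (p = 0.0286).

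The number of genes called, 6, was 11 with no low count filter, 114 by DESeq2, 1 with the replicate block, and 3 to 14 with each library left out (14 without knockout 1, 3 without knockout 2). Deviations from the group means of same-numbered mice had r = 0.0656, 0.0509 and 0.0882, against -0.194 to 0.095 for the other pairs of wild-type and knockout mice. Not every library correlated best with its own number. The labels do not say whether the numbers pair the mice, and these values from 4 and 3 mice are too few to decide it. No member was called with the block, but none was called in the main fit either, so no call could be lost. The log2 fold change of Ccl8 was 2.02 with the block, against -0.53 in the main fit. With 3 knockout mice, changes of 2-fold were mostly not detectable.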
